A study of Citrus trifoliata and Citrus junos with 20 samples.

Results

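csi-miRN06 and csi-miRN21 are 2 predicted miRNAs of citrus roots that were abundant enough to count in trifoliate orange and close to the limit of detection in the other rootstock of the study. They were chosen from 100 listed miRNAs, 49 known and 51 predicted, by their reads pooled over rootstocks. The rule asked for at least 50 RPM (reads-per-million of the listed miRNA reads of a library) in the 9 libraries of trifoliate orange, and for less than 5% of that level in the 9 libraries of the other rootstock. csi-miRN32 met the same thresholds but is not a member. The difference between the rootstocks therefore chose the members, and it is given below as a description without a test. The effect of pH within trifoliate orange did not enter the rule and was tested.

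Small RNA libraries were made from roots of Ziyang xiangcheng (Citrus junos, Cj), a rootstock that tolerates alkaline conditions, and of trifoliate orange (Poncirus trifoliata, Pt), a rootstock that is sensitive to them. Seedlings of each rootstock grew in hydroponics for 8 weeks, in solutions of pH 6.5 (taken as normal by the study), pH 8.0 or pH 9.5. Each of the 6 groups (Cj pH 6.5, Cj pH 8.0, Cj pH 9.5, Pt pH 6.5, Pt pH 8.0 and Pt pH 9.5) had 3 libraries, and a library came from a pool of 3 seedlings, so that no library stands for a single plant. The labels name no treatment other than the pH. Whether the pools of a group grew in separate vessels is not stated in the sources used here, so the p-values speak to the spread among these pools alone. Listed miRNA reads per library ranged from 77255 to 771522. The shallowest library by far was Pt pH 8.0 replicate 1, and the next one held 254842 reads. As the tissue was a whole root, fewer cells that make a miRNA and less of it per cell cannot be told apart.

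A plant miRNA is cut by a Dicer-like enzyme from a transcript that folds back on itself into a hairpin. One strand of the excised duplex, the mature miRNA, is loaded into an Argonaute protein and guides it to transcripts of largely complementary sequence, which are cleaved or kept from translation. The opposite strand, called the star strand, is mostly lost. Conserved families such as MIR156 or MIR396 are shared by most land plants, whereas many miRNA genes are young, are found in a single genus or species, and are expressed at low levels. csi-miRN06 and csi-miRN21 carry no family in the deposited list, like 20 other predicted miRNAs, and no target was examined for them here.

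The mature sequences are shown because the values below count the reads that the authors assigned to them. They are written 5′ to 3′, with the seed, bases 2 to 8, in capitals.
csi-miRN06: aAAAUUUUgagggacuaaugaua
csi-miRN21: cGGGUUAUaaauucggguuga
csi-miRN06 is 23 nt long, a length shared by 2 of the 51 predicted miRNAs, the other 49 being 21, 22 or 24 nt long. It begins with A, as 20 of the predicted miRNAs do, and its GC content of 26.1% was below the median of 38.1% of the predicted miRNAs. csi-miRN21 has 21 nt, like 19 of the predicted miRNAs, and a GC content of 42.9%. It begins with C, which is the first base of 5 predicted miRNAs and of 8 of all 100. No other listed miRNA has the seed of csi-miRN06 or that of csi-miRN21. The mature sequences are 15 edits apart, and the longest run of letters they have in common is 5 bases. The nearest other listed sequences are 9 edits from csi-miRN06 (csi-miR1515 and csi-miR172a-3p) and 11 edits from csi-miRN21. Neither is thus a near copy of the other or of any other listed miRNA.

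The hairpins were placed by the authors on the genome of sweet orange (Citrus sinensis), to which the reads of both rootstocks were matched. The levels in Cj and Pt are therefore those of reads that match that genome. Whether the mature sequences occur unchanged in the genome of either rootstock was not checked. The release and strand convention of the sweet orange genome are not given in the sources used here, and no annotation of the loci was used. The precursor of csi-miRN06 lies at chr1:9667895-9668144 on the minus strand and that of csi-miRN21 at chr8:9708300-9708549 on the plus strand, both as deposited and each 250 bases long. The stretch from the first to the last base of the mature and star strands is shown for each, 5′ to 3′ on the strand of the hairpin, with the mature miRNA in capitals, because it shows the different arms that hold them.
csi-miRN06: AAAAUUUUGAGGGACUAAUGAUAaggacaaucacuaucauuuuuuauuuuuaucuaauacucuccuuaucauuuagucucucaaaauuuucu
csi-miRN21: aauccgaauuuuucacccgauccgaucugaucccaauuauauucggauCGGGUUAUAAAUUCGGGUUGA
In csi-miRN06 the mature strand is the 5′ arm, bases 23 to 45 of the hairpin, and 45 bases separate it from a star strand of 24 nt. In csi-miRN21 the mature strand is the 3′ arm, bases 209 to 229, and 27 bases separate it from a star strand of 21 nt. In the structure deposited for csi-miRN06 all 23 mature bases were paired, 21 of them to the star strand, including the 7 bases of the seed. For csi-miRN21, 18 of 21 mature bases were paired, 16 of them to the star strand, including 4 of the 7 seed bases. In each duplex 1 of these pairs was G with U. The folding energy listed for csi-miRN06 was -60.54 and ranked 46 of 51 from the most negative, and that for csi-miRN21 was -76.4 and ranked 21. The prediction scores of both were below the median. csi-miRN06 had a score of 0.6, the rank 6 from the lowest of 51, and csi-miRN21 had a score of 1.5, the rank 20, where the median was 4.3, the highest 735856, and 27 of the 51 were under 10. The score adds up evidence for the hairpin, part of which comes from the number of reads. Beyond the rule the members share a missing family, as do 20 others, whereas length, first base, arm and pairing differ.

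In Pt roots csi-miRN06 was counted in every library. The reads were 84, 188 and 114 in replicates 1 to 3 at pH 6.5, 14, 108 and 134 at pH 8.0, and 69, 107 and 60 at pH 9.5. In Cj it was counted 3, 1 and 1 times at pH 6.5, 0, 1 and 2 times at pH 8.0, and 1, 0 and 1 times at pH 9.5. Every Pt library held more reads of csi-miRN06 than any Cj library, even the shallow one with 14. Pooled over 9 libraries, 878 reads in Pt made 169.7 RPM (exact 95% Poisson interval 158.6 to 181.3), and 10 reads in Cj made 2.76 (interval 1.32 to 5.07). The Pt level was 61.5 times the Cj level, with an exact counting interval from 33.3 to 128.7. Such intervals hold the error of counting reads alone. The sources used here name no tagging of molecules before PCR, so reads cannot be taken as counts of molecules.

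csi-miRN21 was the more abundant member. Its reads in Pt were 169, 242 and 205 at pH 6.5, 31, 241 and 242 at pH 8.0, and 167, 160 and 126 at pH 9.5. Those in Cj were 1, 2 and 0 at pH 6.5, 4, 1 and 1 at pH 8.0, and 1, 0 and 3 at pH 9.5. Again no Cj library reached the level of any Pt library. The pooled level was 305.9 RPM in Pt (1583 reads, interval 291.0 to 321.4) and 3.59 in Cj (13 reads, interval 1.91 to 6.13). The Pt level was 85.3 times that in Cj, with a counting interval from 49.7 to 160.5.

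**Figure D1:**
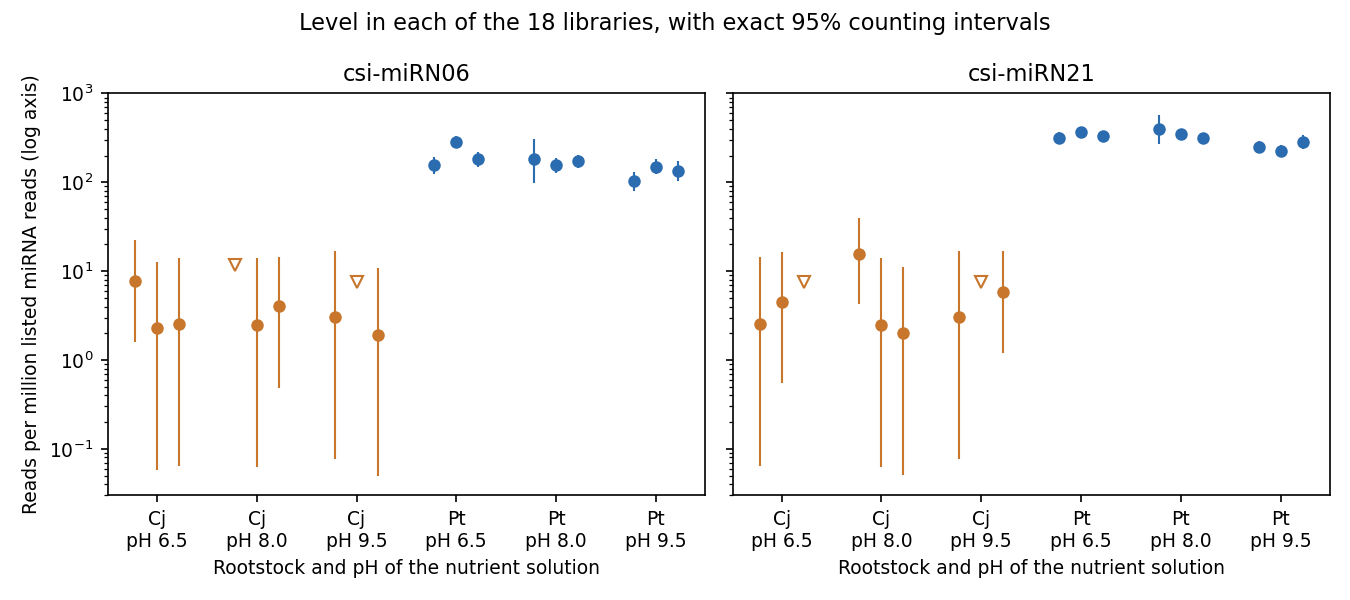
Level of csi-miRN06 (left) and csi-miRN21 (right) in RPM, reads-per-million of listed miRNA reads, in each of the 18 libraries, on a log axis, by rootstock and pH. Points are libraries with exact 95% counting intervals, and open triangles mark the level of 3 reads in libraries with none. The 9 Pt libraries lie between 103.9 and 287.1 for csi-miRN06 and between 224.8 and 401.3 for csi-miRN21, all above the Cj libraries.

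The separation held at each pH. For csi-miRN06 the Pt level was 52.0 times the Cj level at pH 6.5 (386 against 5 reads, counting interval 22.1 to 161.2), 63.9 times at pH 8.0 (256 against 3 reads, 21.6 to 312.0) and 80.9 times at pH 9.5 (236 against 2 reads, 22.1 to 671.6). For csi-miRN21 it was 138.4 times at pH 6.5 (616 against 3 reads, 47.1 to 673.1), 64.2 times at pH 8.0 (514 against 6 reads, 29.3 to 175.7) and 77.6 times at pH 9.5 (453 against 4 reads, 30.1 to 286.1). The intervals of the 3 pH levels overlapped for each miRNA. An order of the ratios by pH cannot be read from so few Cj reads.

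In the Cj libraries the counts were at the floor of the method. Each miRNA was missing from 2 of 9 Cj libraries, csi-miRN06 from Cj pH 8.0 replicate 1 and Cj pH 9.5 replicate 2, and csi-miRN21 from Cj pH 6.5 replicate 3 and Cj pH 9.5 replicate 2. A count of 0 allows up to 3 reads at a one-sided level of 95%, which is 11.8 RPM in the first of these libraries, 7.51 in the second and 7.60 in the third. The exact two-sided intervals used for the other counts end at 14.5, 9.23 and 9.35 RPM. Both miRNAs were missing from Cj pH 9.5 replicate 2. The largest Cj count was 4 reads of csi-miRN21 in Cj pH 8.0 replicate 1, or 15.7 RPM with an interval from 4.28 to 40.2. Whether these reads came from RNA of Cj roots was not tested, and 10 and 13 reads do not show how their level varied. The reads at pH 8.0 over those at pH 6.5 in Cj gave a ratio of 0.64 for csi-miRN06 (counting interval 0.10 to 3.28) and 2.13 for csi-miRN21 (0.45 to 13.1). At pH 9.5 over pH 6.5 the ratios were 0.39 (0.04 to 2.40) and 1.31 (0.22 to 8.96). The intervals leave room for a fall and for a rise of more than 2-fold in each miRNA at either pH, and all include 1.

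Around the thresholds the list was sparse. The Cj level was 1.63% of the Pt level for csi-miRN06 and 1.17% for csi-miRN21. The miRNA left out, csi-miRN32 of the MIR396 family, a family that acts on growth-regulating transcription factors (whether csi-miRN32 acts as its family does was not tested), had 2.39% (138.6 RPM in Pt, 3.31 in Cj). Just outside were csi-miR530a at 30.8% (154.8 against 47.7 RPM) and the predicted 24-nt csi-miRN39 at 36.7% (981.0 against 360.1). Thus no listed miRNA at or above 50 RPM in Pt had a ratio between 2.39% and 30.8%, and none below 50 in Pt had a ratio under 5%. The same rule with the rootstocks exchanged finds 8 predicted miRNAs near absent in Pt, of which csi-miRN41 and csi-miRN42 have identical counts. Their Pt level was between 0.163% and 0.777% of their Cj level. In rank of pooled reads over the 100 miRNAs csi-miRN06 stood at 59 in Pt and at 99 in Cj, and csi-miRN21 at 53 in Pt and at 97 in Cj. Among the 22 predicted miRNAs without a family they ranked 8 and 6 in Pt, where the median of the 22 was 98.8 RPM and the highest 31881.

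**Figure D2:**
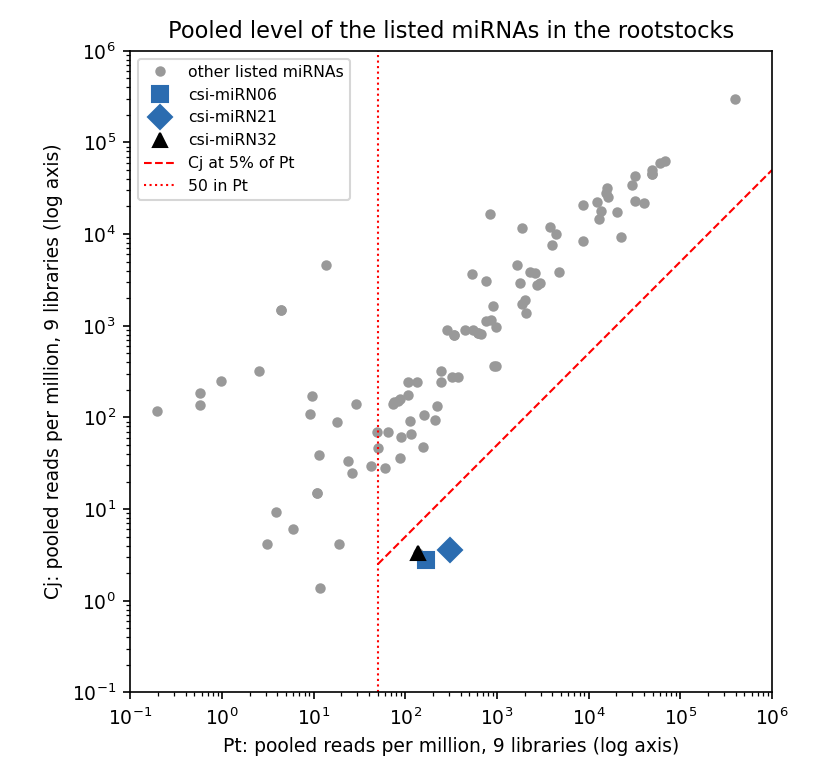
Pooled RPM (reads-per-million of listed reads) of the 100 miRNAs in the 9 Pt libraries (horizontal) and the 9 Cj libraries (vertical), both on log axes. The dotted line marks 50 RPM in Pt and the dashed line a Cj level of 5% of Pt. csi-miRN06, csi-miRN21 and csi-miRN32 lie below the dashed line, with 3.59 RPM or fewer in Cj.

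The comparison of pH levels within Pt asked whether these miRNAs of the sensitive rootstock differ when the roots grow in alkaline solution. Levels are given as CPM, which is RPM scaled with TMM factors, which correct for shifts in composition between libraries. csi-miRN06 had 180.4, 297.4 and 183.4 CPM in replicates 1 to 3 at pH 6.5. It had 181.8, 188.5 and 211.1 CPM at pH 8.0 and 128.5, 192.4 and 183.6 CPM at pH 9.5. Replicate 2 at pH 6.5 stood above all other libraries and replicate 1 at pH 9.5 below them, and the 3 groups overlapped. The means were 220.4 ± 66.7 CPM at pH 6.5, 193.8 ± 15.3 at pH 8.0 and 168.2 ± 34.6 at pH 9.5 (SD, n = 3).

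csi-miRN21 had 362.9, 382.8 and 329.8 CPM at pH 6.5, 402.6, 420.6 and 381.2 CPM at pH 8.0, and 311.1, 287.6 and 385.6 CPM at pH 9.5. All groups overlapped, those at pH 6.5 and pH 8.0 only by the replicates with 382.8 and 381.2 CPM. The means were 358.5 ± 26.8 CPM at pH 6.5, 401.5 ± 19.7 at pH 8.0 and 328.1 ± 51.1 at pH 9.5 (SD, n = 3). The mean was highest at pH 8.0 for csi-miRN21 and at pH 6.5 for csi-miRN06. No pair of neighbours in either order passed the test given next.

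**Figure D3:**
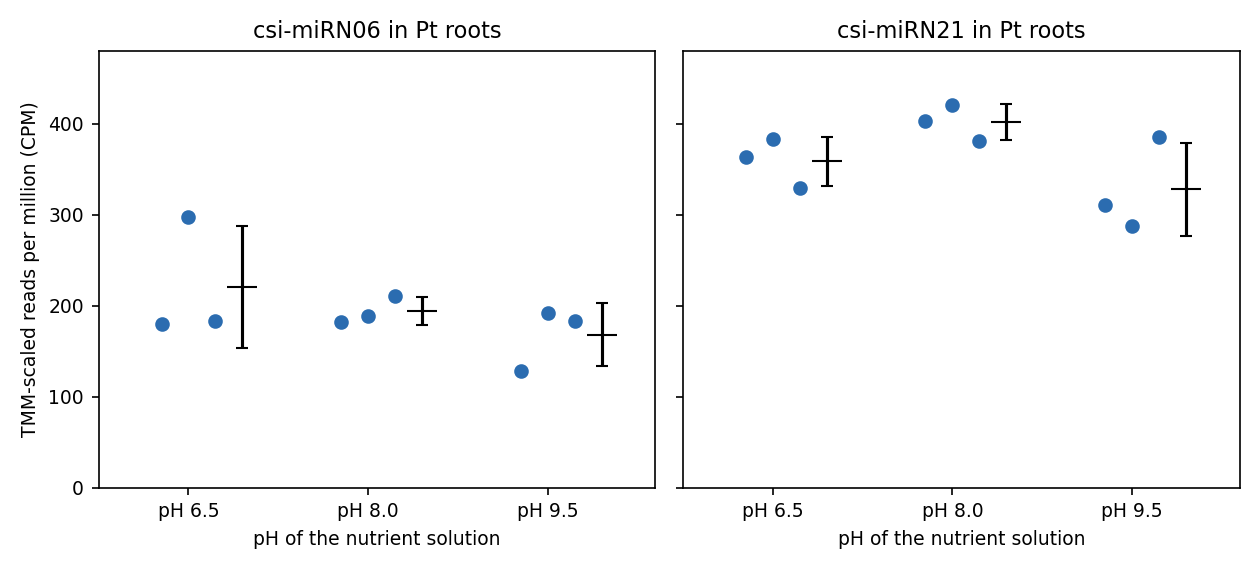
Level of csi-miRN06 (left) and csi-miRN21 (right) in the 9 Pt libraries by pH, in TMM-scaled reads-per-million on a linear axis from 0. Points are libraries, and the black bar and whiskers are the mean ± SD of 3. The libraries of csi-miRN06 lie between 128.5 and 297.4 CPM and those of csi-miRN21 between 287.6 and 420.6, with overlap between the pH levels.

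Neither miRNA was called at any pH in Pt (edgeR quasi-likelihood test over 96 tested miRNAs, adjusted p under 0.05). At pH 8.0 against pH 6.5 the log2 fold change of csi-miRN06 was -0.17 ± 0.28 (SE, 95% interval -0.74 to 0.40, edgeR adjusted p = 0.793). For csi-miRN21 it was 0.16 ± 0.27 (-0.40 to 0.72, edgeR adjusted p = 0.793). In this comparison 9.38% of the tested miRNAs were called, 9 in number, and 0 of the 2 members. At pH 9.5 against pH 6.5, where 30.2% or 29 of 96 were called, csi-miRN06 had a log2 fold change of -0.40 ± 0.27 (-0.96 to 0.16, edgeR adjusted p = 0.317) and csi-miRN21 one of -0.13 ± 0.27 (-0.68 to 0.41, edgeR adjusted p = 0.758). At pH 9.5 against pH 8.0, where 17.7% or 17 were called, the values were -0.23 ± 0.29 (-0.81 to 0.36, edgeR adjusted p = 0.610) for csi-miRN06 and -0.30 ± 0.27 (-0.86 to 0.27, edgeR adjusted p = 0.501) for csi-miRN21. The 17 calls fell to 8 without Pt pH 9.5 replicate 1, to 9 without Pt pH 8.0 replicate 3 and to 11 without Pt pH 8.0 replicate 2. Without adjustment, p was under 0.05 for 14.6%, 38.5% and 30.2% of the tested miRNAs in these 3 comparisons and for 0 of the 2 members, whose lowest was 0.155 for csi-miRN06 at pH 9.5 against pH 6.5 (edgeR). DESeq2 and limma-voom called 0 of the 2 as well. With 2 members, a count of 0 says little beside these background shares.

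The intervals state what the 3 libraries per group could show. For csi-miRN06 the ratio of pH 9.5 to pH 6.5 was 0.76 with a 95% interval from 0.51 to 1.12, and for csi-miRN21 it was 0.91 with an interval from 0.62 to 1.33. For pH 8.0 over pH 6.5 the ratio was 0.89 (0.60 to 1.32) for csi-miRN06 and 1.12 (0.76 to 1.65) for csi-miRN21. The SE of the members was near the median SE of all tested miRNAs, which was 0.25 at pH 9.5 against pH 6.5. The smallest change that was called there was 0.38 on the log2 scale, in a miRNA other than these with an SE of 0.14. The change of csi-miRN06, -0.40 with an SE of 0.27, was not called.

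**Figure D4:**
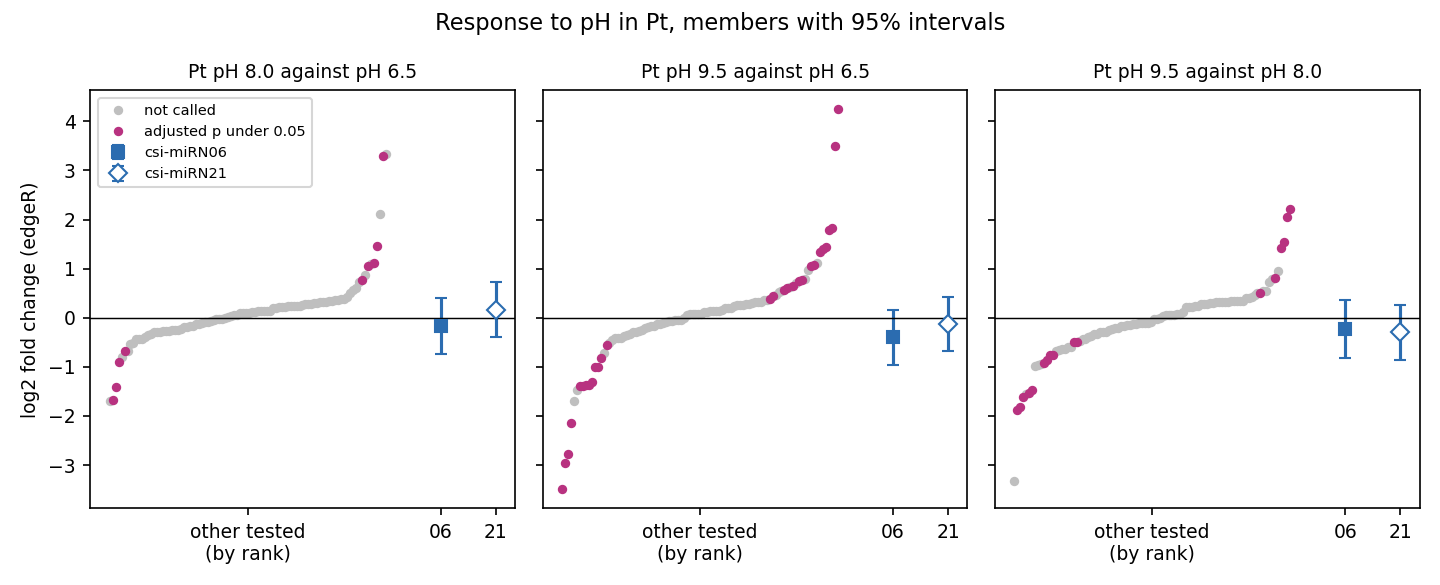
Log2 fold changes between pH levels in Pt for the 96 tested miRNAs, in 3 panels, on a linear axis. Small points are the other tested miRNAs in order of their change, with those past the adjusted p of 0.05 in magenta, and the square and diamond are csi-miRN06 and csi-miRN21 with 95% intervals. All 6 intervals of the members include 0.

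These changes depended on how the libraries were scaled. With the totals behind the deposited TPM as library sizes, the median of all tested miRNAs shifted by -0.23 at pH 8.0 against pH 6.5 and by -0.16 at pH 9.5 against pH 6.5. csi-miRN06 then had -0.43 and -0.61, and csi-miRN21 had -0.081 and -0.33, again without a call (edgeR adjusted p of 0.121 or higher). The sign of csi-miRN21 at pH 8.0 turned with this common shift. Relative to the median of all tested miRNAs, csi-miRN21 was at 0.059 with TMM factors and at 0.048 with the TPM totals in that comparison, and csi-miRN06 at -0.27 and -0.30. Without Pt pH 6.5 replicate 2, the library with the highest csi-miRN06, its log2 fold change was 0.20 for the first and 0.0092 for the second of these comparisons, against -0.17 and -0.40 with all libraries. Relative to the median of all tested miRNAs, csi-miRN06 was at 0.044 and -0.12 without that library, against -0.27 and -0.47 with all libraries. Without Pt pH 9.5 replicate 1 its log2 fold change at pH 9.5 against pH 6.5 was -0.15. The size of the fall of csi-miRN06 in alkaline solution thus depended on single libraries, most on Pt pH 6.5 replicate 2.

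The other predicted miRNAs without a family were counted by the same test. Of these 20, 7 had too few reads in Pt to pass the low-count filter there and had passed it through Cj, so the list is given from a fit to the Pt libraries alone, which tested 13 of them among 83 miRNAs. At pH 8.0 against pH 6.5, 1 of the 13 was called higher and none lower, where 7.23% or 6 of the 83 were called. The median log2 fold change was 0.22 beside 0.048 over the 83. At pH 9.5 against pH 6.5, 2 were called higher and 2 lower, where 31.3% or 26 of the 83 were called. The median was -0.022 beside -0.0039. At pH 9.5 against pH 8.0 none was called higher and 2 lower, where 19.3% or 16 of the 83 were called. The median was -0.33 beside -0.074. With 13 miRNAs, these counts say little beside the shares called over the 83. The members were not called in this fit either.

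Both members passed the low-count filter through Pt, and the 0 to 4 reads of a Cj library leave the difference in response between the rootstocks, Pt minus Cj, nearly unmeasured. For csi-miRN06 it was 0.59 on the log2 scale for pH 8.0 against pH 6.5 (95% interval -1.38 to 2.55) and 0.80 for pH 9.5 against pH 6.5 (-1.27 to 2.88). For csi-miRN21 it was -0.71 (-2.68 to 1.26) and -0.49 (-2.68 to 1.70). The edgeR adjusted p was from 0.619 to 0.768. The SE of the members was from 0.96 to 1.07, where the median of all tested miRNAs was 0.36 and 0.35. Nothing is read from these values on whether the rootstocks respond alike.

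The members could also be compared with each other inside each Pt library, where the depth and the scaling cancel. csi-miRN21 had more reads than csi-miRN06 in 9 of 9 Pt libraries. The ratio of reads was 2.01, 1.29 and 1.80 in replicates 1 to 3 at pH 6.5, 2.21, 2.23 and 1.81 at pH 8.0, and 2.42, 1.50 and 2.10 at pH 9.5. It was lowest in Pt pH 6.5 replicate 2, the library with the most csi-miRN06. On the log2 scale the mean was 0.74 ± 0.34 at pH 6.5, 1.05 ± 0.17 at pH 8.0 and 0.98 ± 0.36 at pH 9.5 (SD, n = 3). The ratio did not differ across pH beyond the spread of the libraries (exact permutation test, p = 0.439, the smallest possible p being 0.00357). That test was one-sided in the sum of squares between groups, over 1680 assignments. Both are counted as whole molecules, so that no term for length enters, but a ratio of reads is not a ratio of molecules.

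Whether the members varied together from library to library was tested as well. Over the 9 Pt libraries, the single relation tested, Pearson's r of log2 CPM was 0.376 (exact permutation p = 0.331) and Spearman's rho 0.183 (exact permutation p = 0.644). Without the 2 libraries farthest from the median of csi-miRN06, Pt pH 6.5 replicate 2 and Pt pH 9.5 replicate 1, r was -0.044 (exact permutation p = 0.930). Within the pH levels, on deviations from the mean of each, r was 0.284 (exact permutation p = 0.588). On the deposited TPM, which carries no composition factor, r was 0.684 (exact permutation p = 0.0445), but 0.137 without the same libraries. The relation did not hold without them, although leaving out the extremes of csi-miRN06 also narrows its range. A correlation of the members was not shown.

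**Figure D5:**
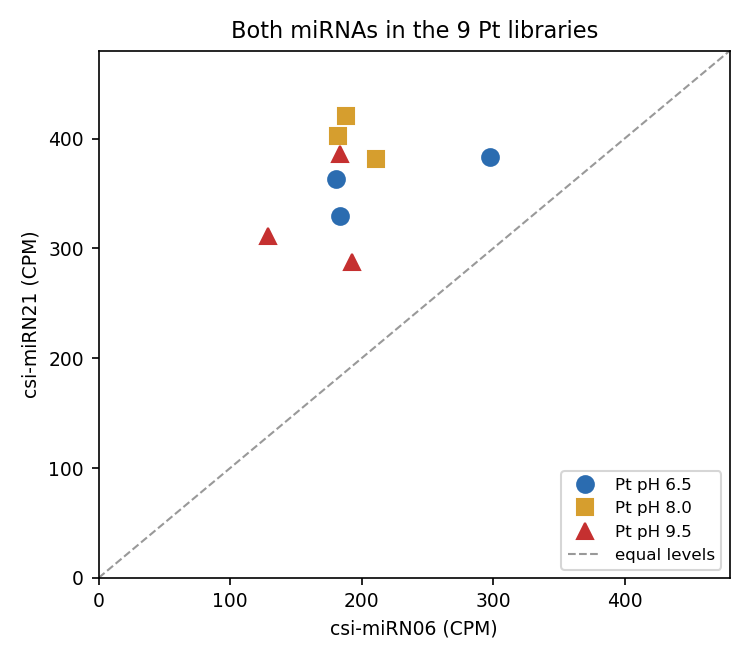
csi-miRN21 against csi-miRN06 in the 9 Pt libraries, both in TMM-scaled reads-per-million on linear axes from 0, with symbols for pH. All 9 points lie above the dashed line of equal levels, and the point at 297.4 CPM of csi-miRN06 is Pt pH 6.5 replicate 2.

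The tested miRNAs whose log2 CPM followed each member most closely over the 9 Pt libraries were different ones, apart from csi-miRN26 of the MIR8721 family. For csi-miRN06 they were csi-miRN33 (r = 0.697), a predicted miRNA without a family, csi-miRN26 (0.678) and csi-miRN43 (0.637), which belongs to MIR160, a family that acts on auxin response factors. For csi-miRN21 they were csi-miRN05 (r = 0.792) of MIR171_1, a family that acts on GRAS transcription factors (not tested for csi-miRN05), the 24-nt csi-miRN35 (0.779), which has no family, and csi-miRN26 (0.735). These are the highest of 95 values each, over libraries that share their scaling, and are given as a description. Without Pt pH 6.5 replicate 2 and Pt pH 9.5 replicate 1 the values of csi-miRN06 were -0.425, -0.245 and -0.089, and those of csi-miRN21 0.860, 0.868 and 0.774. None of these 5 miRNAs was near absent in Cj. csi-miRN33 had 136.4 ± 29.1 CPM in Pt and 57.0 ± 22.2 in Cj (SD, n = 9), csi-miRN35 had 92.3 ± 21.6 and 121.8 ± 12.7, and csi-miRN26 had 790.9 ± 156.4 and 711.5 ± 144.4.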

How the data were processed

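Counts deposited by the authors are whole reads per mature miRNA in 18 small RNA libraries, without normalisation. Per the study's methods, Bowtie was used to remove structural RNA and repeats, clean reads were matched to the Citrus sinensis genome, known miRNAs came from miRBase and others from miRDeep2, and differences were tested with DESeq 1.10.1. The TPM deposited by the authors is reads over total mapped reads, scaled to reads-per-million. The totals behind it, worked back here from counts and TPM, were 125084 to 1034566 per library. The score deposited by the authors per predicted miRNA was only described. Of 103 lines 3 repeats were dropped, and 1 emptied line is not reported here. The 2 degradome libraries were not analysed here.

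edgeR 4.0.16 (R 4.3.3) fitted 6 group means to the counts of all 18 libraries with TMM factors. Filtering (minimum count 10, total 15) left 96 miRNAs, and 4 were not tested. Calls used a Benjamini-Hochberg adjusted p under 0.05. The SE came from the fold change and its F statistic. On simulated counts the script was tested and recovered most of the larger changes. Each simulated miRNA had the same level in both rootstocks before the changes, unlike the members. Permutation tests used numpy 2.4.6 and counting intervals scipy 1.17.1. Log2 CPM used a prior count of 1. Floors use 3 reads, which is 3.89 to 38.8 RPM in these libraries. Replicates of a group differed by more than sampling noise in all 18 pairs.

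The members and lists were chosen with earlier results of these data known. The miRNAs named are the members, csi-miRN32, the nearest 2 outside the thresholds, and the 3 most correlated with each member. Alternatives were DESeq2 1.42.0 (size factors, and its own test), limma-voom (limma 3.58.1), library sizes from TPM or without the 5 most abundant miRNAs, no filter, Pt libraries alone, repeated sequences once, a replicate block, and each library left out. One alternative, the correlation within pH levels, was chosen after seeing the data.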

Additional observations from a re-analysis of the deposited data

How the results depend on the processing

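No call was gained in the 10 contrasts of csi-miRN06 and csi-miRN21 under any of 188 alternative values, and the lowest adjusted p was 0.121 (edgeR, library sizes from TPM totals, csi-miRN06 at pH 9.5 against pH 6.5 in Pt). The direction stayed in 179 of them. Of the 9 reversals, 1 came with library sizes from TPM totals, which gave csi-miRN21 -0.081 at pH 8.0 against pH 6.5 and shifted the median of all tested miRNAs by -0.23 (csi-miRN21 minus that median was 0.048, against 0.059), and 8 came from leaving out 1 library. Leaving out each library in turn gave csi-miRN06 from -0.34 to 0.20 at pH 8.0 against pH 6.5, from -0.53 to 0.0092 at pH 9.5 against pH 6.5, from -0.37 to 0.015 at pH 9.5 against pH 8.0 and from -0.12 to 1.16 for the difference in response to pH 8.0. The first 2 turned without Pt pH 6.5 replicate 2, the third without Pt pH 9.5 replicate 1 and the last without Cj pH 6.5 replicate 1. It gave csi-miRN21 from -0.20 to 0.036 at pH 9.5 against pH 6.5, and from -1.53 to 0.29 and from -1.31 to 0.61 for the differences in response to pH 8.0 and pH 9.5. The first of these turned without Pt pH 6.5 replicate 2, the second without Cj pH 8.0 replicate 1 and the third when either Cj pH 6.5 replicate 3 or Cj pH 9.5 replicate 3 was left out. With the replicate block, csi-miRN06 had -0.20, -0.39 and -0.19 and csi-miRN21 0.16, -0.14 and -0.30 in the order of the report. It changed no call of either, and called 8, 29 and 16 miRNAs in Pt where the fit without the block called 9, 29 and 17. Deviations of same-numbered Pt libraries had correlations from -0.268 to 0.24, and 2 of 9 were over 0.1. With 3 libraries per group, these values do not settle whether the numbers mark a shared block. At pH 8.0 against pH 6.5 in Pt 22 miRNAs were called with library sizes from TPM totals against 9, of which 5 were higher and 17 lower in place of 5 and 4. At pH 9.5 against pH 8.0 the count was between 8 and 16 with a Pt library left out, against 17. It was 19 without Cj pH 9.5 replicate 1. The split of higher and lower calls there was 6 and 11, against 13 and 10 with TPM totals, 11 and 11 with DESeq2 size factors and 14 and 8 with repeated sequences counted once, which moved the median of all tested miRNAs by 0.14. At pH 9.5 against pH 6.5 it was 16 and 13, against 11 and 20 with TPM totals and 10 and 16 with Pt libraries alone. The correlation of the members passed the threshold with deposited TPM (r = 0.684). The cause of these changes was not tested. The Cj level stayed between 1.28% and 1.83% of the Pt level for csi-miRN06 and between 0.87% and 1.32% for csi-miRN21 with deposited TPM and with each library left out. The Cj values rest on 10 and 13 reads.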
